A study of Mus musculus with 11 samples.

Results

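Knockdown tumours 7 and 9 are 2 of the 9 mouse high-grade gliomas labelled as Ezh2 knockdown, in a series of 11 tumours whose other 2 are controls. They were selected on measured values: they stood apart from knockdown tumours 1 to 6 and 8 on the second principal component of log2 CPM, the read counts scaled to library size. Every autosomal gene of these libraries thus entered the choice. The differences between tumours 7 and 9 and the other 7 are therefore given as a description, with no test. Genes of chromosomes X and Y and of the mitochondrial genome were left out.

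All 11 tumours grew in the brains of NOD-SCID mice after intracranial injection of glioma-initiating cells. These cells derive from neural stem cells of the subventricular zone of 7-day-old mice with compound conditional alleles, p53, Ink4a/Arf and LucR among them, which lentiviral CMV-Cre had recombined in culture. In every group the cells also carried FH1-tUTG-shEzh2, a doxycycline-responsive short hairpin against Ezh2, and had been sorted for GFP. The 9 knockdown tumours are described as having prolonged Ezh2 knockdown and the 2 controls as having none. The design text speaks of mice on doxycycline and mice off it, while the treatment field gives 2 mg/ml with 1% sucrose for all 11, so that the drug in the controls is not settled. The hosts lack mature T and B cells but keep their own myeloid, vascular and brain cells, whose RNA is part of a bulk tumour sample. The age and sex of the hosts, and whether the tumours came from separate cell preparations, are not given in the labels.

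Ezh2 is the methyltransferase of Polycomb repressive complex 2 (PRC2), which marks histone H3 at lysine 27 and keeps developmental genes silent. High-grade glioma cells resemble neural stem cells and can take on features of astrocytes, of oligodendrocyte precursors or of mesenchymal cells, and tumours from the same cells can differ in this. Low oxygen adds its own programme in such tumours, in which HIF transcription factors switch on genes of blood vessel growth, glycolysis and acid balance.

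The libraries held between 11209233 and 18638382 counts, with 16649885 in tumour 7 and 14034352 in tumour 9. Mitochondrial genes took 4.74% and 3.43% of the counts of tumours 7 and 9, the lowest shares of the 9 knockdown tumours, and between 5.32% and 13.5% in the other 7. The part of this share in the results was not tested. The neural stem cell and glial genes Vim, Nes and Sox2 were present in both tumours, at 3395 and 2099 CPM for Vim, 358 and 374 CPM for Nes, and 52.5 and 78 CPM for Sox2. Ezh2 (ENSMUSG00000029687) stood at 9.27 CPM in tumour 7 and 33.9 CPM in tumour 9, against 8.28 to 33.8 CPM (median 16.2) in the other 7 and 52.1 and 60.2 CPM in the controls. Tumour 7 was thus near the lower end of the other knockdown tumours and tumour 9 at their upper end. Ezh2 does not set the pair apart.

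On the second component of all 11 tumours, which held 16.7% of the variance, tumour 7 lay at 54.8 and tumour 9 at 67.2. The nearest other tumours were knockdown 1 at 0.50 and control 2 at 0.052, and knockdown 6 was farthest, at -52.0. Among the 9 knockdown tumours alone the pair separated on the first component (29.7% of the variance), at 41.1 and 52.2, with knockdown 1 nearest at -0.36. On the second component of these 9 tumours (22.2%) tumours 7 and 9 were themselves far apart, at 30.1 and -22.4.

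**Figure D1:**
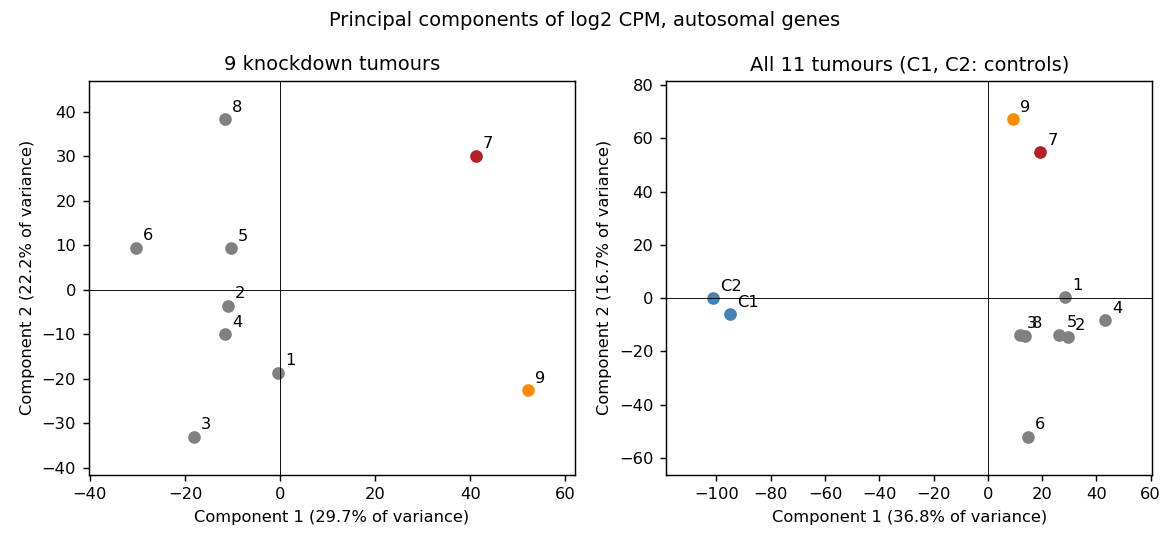
Principal components of log2 CPM of autosomal genes in the 9 knockdown tumours (left) and in all 11 tumours (right), each point a tumour with its replicate number. Tumours 7 and 9 lie at 41.1 and 52.2 on component 1 on the left and at 54.8 and 67.2 on component 2 on the right.

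Tumours 7 and 9 were not a close pair. Pearson's r of log2 CPM between them was 0.940, against a median of 0.935 (0.919 to 0.953) between either and the other 7, and of 0.965 (0.937 to 0.985) among those 7. These correlations run across 12977 genes, which are not independent. The 2 tumours differed from each other by at least 2-fold in 1600 genes, or 12.3% of those measured.

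Of the 12977 autosomal genes measured, 369 (2.84%) were higher in tumours 7 and 9, meaning that both stood above all of the other 7 and that the mean log2 difference was at least 1. In the same sense 79 genes (0.609%) were lower. Without the 2-fold limit, 1198 genes (9.23%) lay above all 7 and 885 (6.82%) below. The median difference over all genes was -0.0098, and 48.7% of all genes had a positive difference. Within the 369 higher genes tumours 7 and 9 differed 2-fold from each other in 94, and tumour 7 was the higher of both in 147. Without tumour 7 the counts were 685 higher and 411 lower, and without tumour 9 they were 685 and 302. Leaving out knockdown 3 raised the lower genes to 127.

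The 15 genes with the largest positive differences included many secreted and matrix proteins. Clca2, a chloride channel accessory protein (ENSMUSG00000028262, mm9 chromosome 3, 144459523 to 144482458), reached 537 CPM in tumour 7 and 495 CPM in tumour 9, against 5.83 to 26.1 CPM (median 14.8) in the other 7. The difference was 5.43 on the log2 scale, with an SD of 0.80 among the other 7. The controls, at 2.21 and 10.8 CPM, were with the low tumours.

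Ctgf, a matricellular growth factor (mm9 chromosome 10, 24315248 to 24318489), was the most abundant of the 15 genes with the largest positive differences, at 2241 and 2317 CPM against 86 to 358 CPM (median 190.3; difference 3.71). Its level was nearly equal in tumours 7 and 9, and the controls stood at 207 and 167 CPM, inside the range of the other 7. Sod3, the extracellular superoxide dismutase, was at 392 and 616 CPM against 12.9 to 61.2 CPM (median 23.5). Fbln5, which takes part in elastic fibre assembly, was at 279 and 314 CPM against 5.22 to 36.6 CPM (median 22.7). That tumours 7 and 9 lay above the other 7 in these genes follows from how the genes were chosen. For Fbln5 the controls (8.84 and 7.73 CPM) were below all of the other 7 tumours but 1.

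Of 9 measured cartilage and bone genes 1, Col9a1, was higher, none was lower and 6 had a negative difference. Over all genes 2.84% were higher, 0.609% were lower and 48.7% had a positive difference. Coch, the inner ear matrix protein cochlin, was at 132 CPM in tumour 7 and 29 CPM in tumour 9, against 1.02 to 18.1 CPM (median 1.69). Oc90, of the otoconial matrix, was at 53.1 and 54 CPM against 1.28 to 7.9 CPM, and its neighbour on chromosome 15, Hhla1, at 109 and 91.2 CPM against 2.34 to 9.32 CPM. For this pair the controls disagreed with each other: control 1 was low (2.21 and 3.09 CPM) and control 2 high (83.6 and 175 CPM). Another gene model overlaps Hhla1, so that reads may be shared.

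Other genes differed widely between the 2 tumours themselves. Kcnc1, a voltage-gated potassium channel, was at 12.5 CPM in tumour 7 and 142 CPM in tumour 9 (other 7: 1.33 to 4.56 CPM). Chi3l1, a chitinase-like secreted glycoprotein that marks mesenchymal glioma, was at 43.2 and 249 CPM (other 7: 1.84 to 15.4). Without tumour 9 the log2 differences of Kcnc1 and Chi3l1 were 2.58 and 2.96, and without tumour 7 they were 6.08 and 5.50. The other genes of the 15 were the matrix genes Smoc1 (4.21) and Col9a1 (4.00), the homeobox gene Barhl2 (4.13), the pentraxin Ptx3 (3.85), the neuropeptide Npy (3.80) and the fatty acid elongase Elovl7 (3.72).

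**Figure D2:**
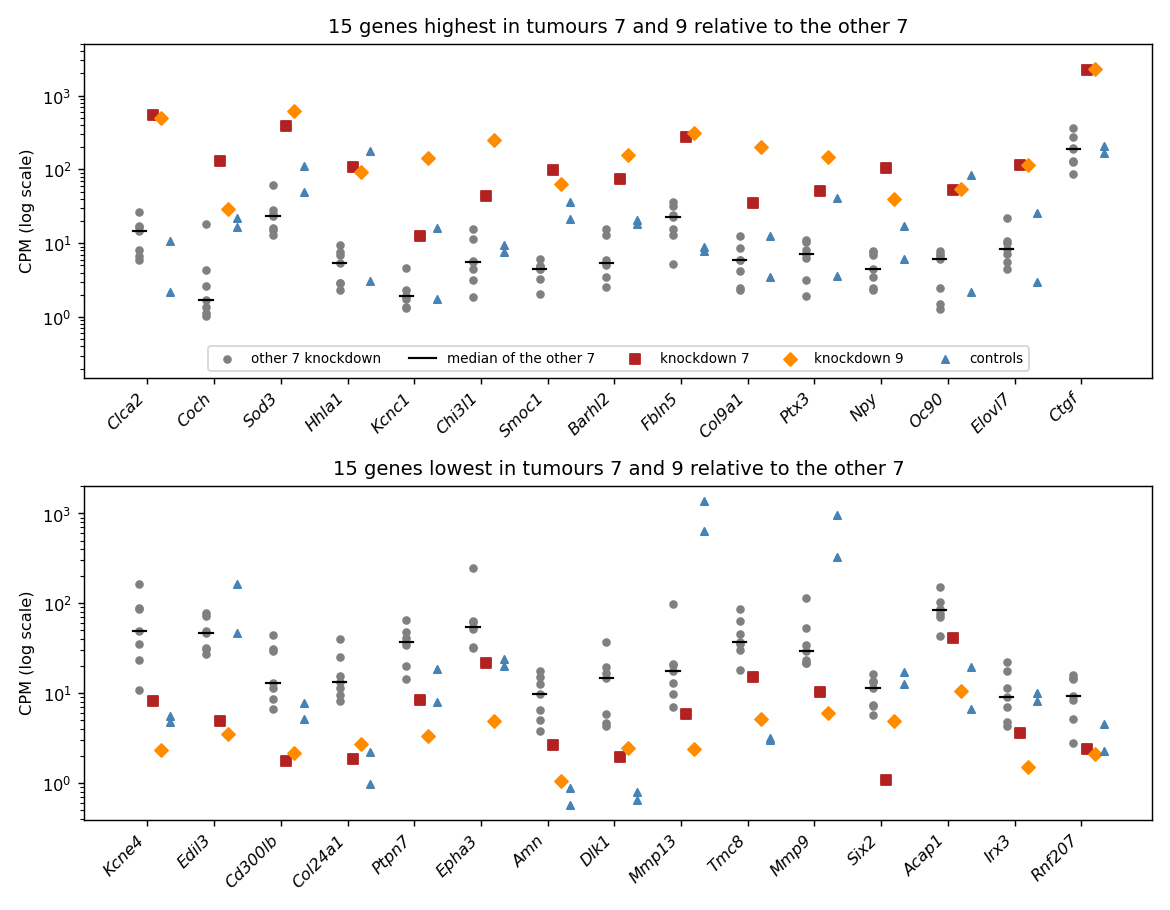
Levels in CPM (log axis) of 15 genes higher and 15 genes lower in tumours 7 and 9, those of largest difference, with a point for each tumour and a bar at the median of the other 7. Tumours 7 and 9 lie outside the range of the other 7 in every gene shown, by which the genes were chosen, and Clca2 stands at 537 and 495 CPM against at most 26.1 CPM.

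Matrix genes went both ways. Of 29 collagens measured, 4 were higher and 2 lower, where 2.84% and 0.609% of all genes were. Col9a3, a chain of the cartilage collagen IX like Col9a1, was at 286 and 346 CPM against 16.5 to 46.3 CPM (median 26.3; difference 3.46). Col7a1, the anchoring fibril collagen, was lower at 134 and 117 CPM against 187 to 971 CPM (-1.33), as was the fibrillar collagen Col5a2 (-1.18). Of 31 matrix glycoproteins and proteoglycans 5 were higher and 1, Thbs1, lower (-1.17). Bcan, Ncan and Cspg5, proteoglycans of brain matrix, were among the higher ones (2.76, 1.92 and 2.27). Of 30 matrix proteases and inhibitors 1 was higher and 2 were lower. Timp3, an inhibitor of metalloproteinases, was at 367 and 284 CPM against 25.1 to 87.3 CPM. The proteases Mmp9 and Mmp13 were at 10.2 and 5.93 CPM in tumour 7 and at 5.99 and 2.39 CPM in tumour 9, below the other 7, whose medians were 29.4 and 17.8 CPM.

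Part of the glial genes were higher in tumours 7 and 9. Of 9 measured genes of oligodendrocyte precursors 4 were higher, against 2.84% of all genes, and none lower. The median difference was 0.98. Olig2, the transcription factor of the oligodendrocyte lineage, was at 7.97 and 11.9 CPM against 0.817 to 6.12 CPM (median 5.03). Olig1, its paralog, was at 26.2 and 28.3 CPM against 2.25 to 18.3 CPM. Both were still below the controls, at 19.9 and 51.6 CPM for Olig2 and 50.2 and 109 CPM for Olig1. Bcan, brevican, was at 70.4 CPM in tumour 7 and 269 CPM in tumour 9 against 6.74 to 58.8 CPM, and Ptprz1, a receptor phosphatase, at 38.8 and 57.5 CPM against 18.2 to 28.1 CPM. That the other 7 did not reach tumour 7 or 9 in these 4 genes follows from the definition of a higher gene. In bulk RNA, more cells of a type and more RNA per cell cannot be told apart.

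Of 17 astrocyte genes 3 were higher, against 2.84% of all genes, and none lower (median difference 0.74). Aldoc, the aldolase of astrocytes, was at 246 and 414 CPM against 21.9 to 61.1 CPM (median 36.9; difference 3.21). The glutamate transporter Slc1a3 was at 47.2 and 102 CPM against 5.11 to 41.2 CPM and its relative Slc1a2 at 62.5 and 77.3 CPM against 5.52 to 52.7 CPM. Gfap, the filament protein of astrocytes, was not among them, at 199 and 313 CPM within 72.9 to 471 CPM. Genes of myelinating cells did not go one way, with 2 of 10 higher (Trf and Ugt8a) and Mobp lower (17.6 and 45.6 CPM against 58.3 to 113). Summed over 19 listed markers this group reached 3763 CPM in tumour 7 but 990.3 CPM in tumour 9, against 624 to 1776 CPM in the other 7.

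Part of the genes of electrical and synaptic signalling were higher. Of 26 ion channel genes 6 were higher and 2 lower, and of 16 neurotransmitter receptors 4 were higher. Over all genes 2.84% were higher and 0.609% lower. Trpm3, a cation channel, was at 89 and 84.3 CPM against 7.24 to 65.5 CPM, and the muscarinic receptor Chrm3 at 15.5 and 25.4 CPM against 1.66 to 8.61 CPM. The calcium channel subunits Cacna1g (-1.61) and Cacna1c (-1.02) were lower. Neuron markers were summed beside them, since normal brain may be in a sample. Their sum over 20 listed markers was 604.7 CPM in tumour 7 and 617.6 CPM in tumour 9, inside the 285.9 to 815.7 CPM of the other 7. Gene by gene, 14 of 16 measured neuron markers had a positive difference, with medians of 0.55 in tumour 7 and 0.78 in tumour 9, the same direction as the higher glial, channel and receptor genes. Their part in those differences was not tested. Of the 16 markers 2 were higher, Gad1, which makes GABA (1.86), and Celf4 (1.85), while Slc17a6, a vesicular glutamate transporter, had no count in tumours 7 and 9.

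The Hedgehog pathway carries a signal from ligands such as Dhh through the receptor Ptch1 to the transcription factor Gli1, whose own gene is a target. Of its 12 measured genes 4 were higher, against 2.84% of all genes, and none lower. The median difference was 0.72. Gli1 was at 11.8 and 19 CPM against 2.15 to 5.11 CPM (median 3.01; difference 2.28). The ligand Dhh was at 67 and 65.3 CPM against 13.6 to 32.6 CPM, and the coreceptor Gas1 at 196 and 181 CPM against 32.5 to 77.9 CPM. Gli1 and Gas1 were also above both controls, which stood at 2.48 and 1.57 CPM for Gli1. Hhip, a membrane protein that binds Hedgehog ligands and was measured only with a relaxed filter on low counts, went the other way, at 1.98 CPM in tumour 7 and 0.374 CPM in tumour 9 against 6.2 to 28.8 CPM (median 12.4). The median of the list rested more on tumour 9: without tumour 7 it was 1.06, and without tumour 9 it was 0.37.

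Of 35 Wnt pathway genes 5 were higher and none lower. The list as a whole did not lean up, with 16 positive and 19 negative differences and a median of -0.046. Its median was 0.56 in tumour 7 and -0.018 in tumour 9. Over all genes 2.84% were higher and 0.609% lower, which holds for the other lists of this paragraph too. Sfrp1, a secreted Wnt antagonist, was at 74.5 and 73.1 CPM against 5.29 to 14.7 CPM (median 6.99; 3.28), and the receptor Fzd9 at 19.3 and 69.7 CPM against 1.33 to 7.92 CPM (3.58). Of 33 PDGF, EGF and FGF genes 4 were higher and 1 lower. Tgfa, a ligand of the EGF receptor, was at 98.3 and 145 CPM against 12.2 to 31.9 CPM, and the receptor Fgfr4 at 18.4 and 17.5 CPM against 0.920 to 7.06 CPM, with 0.177 and 0.215 CPM in the controls. Pdgfb, a PDGF ligand, was lower (-1.15). Etv5, a transcription factor that follows receptor signalling, was at 557 and 1203 CPM against 179 to 329 CPM. Of 21 Notch genes 4 were higher, Nrarp, a feedback target, among them (1.30), and Dlk1, a non-canonical ligand, was lower. Bmp5, a BMP ligand, was at 114 and 185 CPM against 18.5 to 38 CPM, 1 of 2 higher (6.06%) among 33 TGF-beta and BMP genes. The tumours do not overlap in the higher and lower genes named here because the definition asks for it.

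Hypoxia genes were higher mainly in tumour 7. Of 27 genes of the hypoxia response 4 were higher, against 2.84% of all genes, and none lower. A positive difference was found in 22, against 48.7% of all genes, and the median was 0.63. Taken alone, the median was 1.13 above the mean of the other 7 in tumour 7 and 0.072 in tumour 9, so that the list does not set the pair apart as a pair. Adm, the vasodilator peptide adrenomedullin, was at 75.1 CPM in tumour 7 and 37.6 CPM in tumour 9 against 3.53 to 20.2 CPM (median 6.29). Egln3, a prolyl hydroxylase of HIF, was at 237 and 100.3 CPM against 15.3 to 67.5 CPM. Car9, a carbonic anhydrase of acid balance, was at 12.4 and 20.4 CPM against 1.89 to 8.94 CPM, and Vegfa at 546 and 447 CPM against 96 to 351 CPM. Both tumours were above the other 7 in these 4 genes because a higher gene is defined so. Tumour 9 was not above them in Bnip3 (184 CPM in tumour 7, 65 in tumour 9, other 7 up to 96.3) or Ndrg1 (454, 92.5 and up to 194 CPM). Both controls were above all knockdown tumours in Car9, at 51.1 and 26 CPM.

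ACGTG is a form of the core motif that HIF factors bind, and the only form searched. Stretches around it in the promoters of the higher genes Car9 and Egln3 are shown as examples. Vegfa also had a match, and its stretch is not shown. The motif was searched on both strands (ACGTG or CACGT) in RefSeq promoter windows of GRCm38.p6, from 250 bases before to 50 after a gene's start. The Car9 stretch is chr4:43506968-43507052 on the plus strand, with the motif 18 bases before the start, and that of Egln3 is chr12:54204059-54204124 on the minus strand, 229 bases before it. Capitals mark the motif.
Car9: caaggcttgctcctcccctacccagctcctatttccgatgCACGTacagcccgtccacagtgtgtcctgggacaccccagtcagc
Egln3: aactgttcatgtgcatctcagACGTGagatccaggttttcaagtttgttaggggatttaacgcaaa
Of the 4 higher hypoxia genes 3 had a match in at least 1 window and Adm had none. Of the 22 measured genes of the hypoxia list found among the windows 17 had a match. A match is therefore not particular to the higher genes of the list. A match was found in 19.6% of all 32851 windows and for 29.2% of the 9029 measured genes in the table, so that a match is common by itself.

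Glycolysis and cell cycle genes showed the same contrast between the 2 tumours. All 15 measured glycolysis genes had a positive difference (median 0.55), 3 lay above all of the other 7 and none passed 2-fold. The median was 0.96 in tumour 7 and 0.15 in tumour 9. Eno1, an enolase, was at 259 and 223 CPM against 98.9 to 194 CPM. Of 39 genes of S phase 38 had a negative difference (median -0.33) and 10 lay below all 7, and of 43 genes of G2 and M phase 42 had one (median -0.46) and 4 lay below. None of them reached 2-fold. Over all genes 48.7% had a positive difference, 9.23% lay above all of the other 7 and 6.82% below. The 4 of 43 are thus near the share of all genes. In tumour 7 all 39 and all 43 were under the mean of the other 7 (medians -0.59 and -0.82), while in tumour 9 it was 24 and 25 (medians -0.11 and -0.053). Birc5, survivin, was low in both, at 39 and 55.9 CPM against 74.4 to 112 CPM. Mki67, the proliferation marker, was at 131 CPM in tumour 7, under all others, but at 323 CPM in tumour 9, within 177 to 422 CPM.

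**Figure D3:**
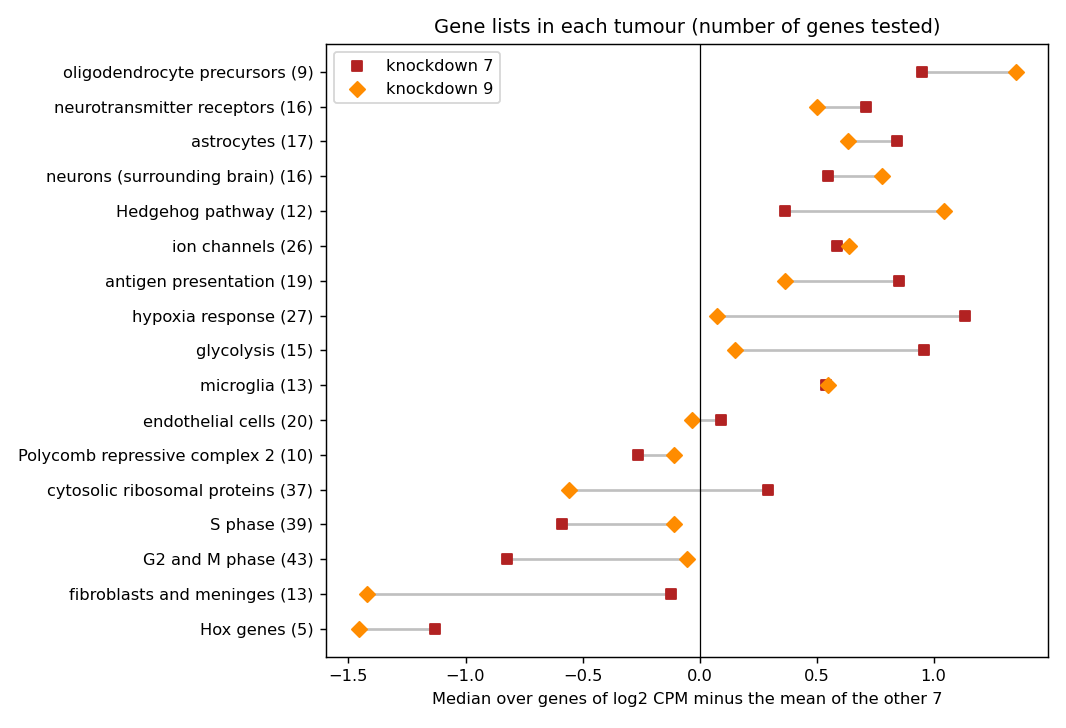
Median over the measured genes of each list of log2 CPM minus the mean of the other 7 knockdown tumours, for tumour 7 (squares) and tumour 9 (diamonds). Genes of oligodendrocyte precursors lie at 0.95 and 1.35, whereas the hypoxia list lies at 1.13 in tumour 7 and 0.072 in tumour 9 and the G2 and M phase list at -0.82 and -0.053.

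Kcne4 and Edil3 led the 15 lower genes named by the size of their difference. Kcne4, an accessory subunit of potassium channels (mm9 chromosome 1, 78813502 to 78816599), was at 8.11 and 2.32 CPM against 10.9 to 163 CPM (median 49.4; difference -3.39, SD among the other 7 1.31). Edil3, an integrin ligand of the matrix (mm9 chromosome 13, 88961077 to 89462828), was at 4.97 and 3.52 CPM against 27.3 to 79 CPM (median 46.5; -3.35). For Kcne4 the controls were low too (4.77 and 5.51 CPM), while for Edil3 they were high (46.6 and 162 CPM). Epha3, an ephrin receptor, was at 21.9 and 4.86 CPM against 31.5 to 249 CPM, and Dlk1, an imprinted gene of the Notch pathway, at 1.98 and 2.47 CPM against 4.29 to 37 CPM. The homeobox genes Six2 (-2.01) and Irx3 (-1.91) were the 2 lower ones of 32 developmental regulators, of which none was higher. Over all genes 0.609% were lower and 2.84% higher. The others of the 15 were Cd300lb (-2.97), Col24a1 (-2.68), Ptpn7 (-2.61), Amn (-2.28), Tmc8 (-2.16), Acap1 (-1.97), Rnf207 (-1.88), Mmp13 and Mmp9.

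Most Polycomb genes had a negative difference, and the list medians were small. Of the 10 measured PRC2 genes none passed 2-fold in either direction. A negative difference was found in 9 of them (median -0.20), and 3 lay below all of the other 7. Over all genes 48.7% had a positive difference and 6.82% lay below all of the other 7. The core subunits Suz12 and Eed and the accessory subunit Mtf2 lay below all of the other 7, at 82.6 and 89.9 CPM against 106 to 145 CPM for Suz12 (-0.49), with differences of -0.24 and -0.31 for Eed and Mtf2. Ezh1 (-0.04), Rbbp4 (-0.08), Jarid2 (-0.24), Aebp2 (-0.06), Phf1 (-0.17) and Phf19 (-0.45) overlapped with the other 7. Among 19 PRC1 genes, of the partner complex, 13 had a negative difference (list median -0.066) and 5 lay below all of the other 7. Only Cbx2, which reads the PRC2 mark, was lower by 2-fold, at 15.7 and 16.7 CPM against 29.2 to 40.5 CPM. Suz12, Ezh1 and Cbx2 lie on chromosome 11, whose median difference was -0.15. The part of this in their levels was not tested. The 5 measured Hox genes, all of the Hoxa cluster, had negative differences, but none lay below all 7. Hoxa2 was at 2.11 and 1.35 CPM within 1.1 to 13.8 CPM. Among 24 imprinted genes Ndn (2.17) and Plagl1 (1.30) were higher and Dlk1 lower. These are 8.33% and 4.17% of the list, against 2.84% and 0.609% of all genes.

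Markers of host cells differed by list. Endothelial markers were summed at 1283 and 1903 CPM in tumours 7 and 9 against 640.5 to 1596 CPM in the other 7, and 0 of 20 were higher or lower. Microglia markers were summed at 2015 and 1758 CPM against 1317 to 1868 CPM. P2ry12, a purinergic receptor of microglia, was the only higher gene of 13 (1.09), or 7.69% against 2.84% of all genes. Of these 13 genes 11 had a positive difference, against 48.7% of all genes, and 4 lay above all of the other 7, against 9.23%. Their medians were 0.54 in tumour 7 and 0.55 in tumour 9. All 3 measured red blood cell markers had a positive difference, and none lay above all of the other 7. Macrophage markers were at 12876 CPM in tumour 7 and 5900 CPM in tumour 9, within 5000 to 14708 CPM, with Cd14, a coreceptor for bacterial lipid, higher (229 and 184 CPM against 16.9 to 39.6) and Arg1, arginase, lower (13.5 and 6.51 CPM against 15.2 to 48.3). Lcn2, lipocalin 2, was at 605 and 552 CPM against 41.6 to 261 CPM, and with it the neutrophil sum was 637.7 and 577.7 CPM against 111.9 to 307.8 CPM. The neutrophil granule gene Ngp had no count in tumours 7 and 9, and Mpo, Elane and Retnlg had at most 3. The part of host cells in the other differences was not tested. Of 19 antigen presentation genes 3 were higher, against 2.84% of all genes. They were the class I gene H2-Q4 (1.80), the class I activator Nlrc5 (1.58) and the peptide transporter Tap1 (1.2). Of 29 interferon-stimulated genes none was higher or lower.

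Because the filter on low counts asked for expression in all 9 tumours, genes close to silent in 1 side were missed. When it was asked of 2 tumours, a choice made after seeing the data, 15450 genes were measured. Of these 592 (3.83%) were higher and 164 (1.06%) lower, 240 and 78 of them not measured before. A gene can pass this filter on the levels of tumours 7 and 9 alone. The filter thus bears on which genes are called higher, and nothing is read from these counts. Cytl1, a secreted cytokine-like protein, was at 20.6 and 8.01 CPM and at most 0.227 CPM in the other 7. Cntn5, a neural adhesion molecule, was at 7.15 and 13.5 CPM and at most 0.307 CPM, and the receptor phosphatase Ptprt at 82.6 and 102 CPM against 0.715 to 6.89 CPM. The ubiquitin ligase Trim71, which is active in early development, was low in both, at 0.545 and 0.374 CPM against 3.74 to 11.9 CPM (median 6.42), with 6.72 and 5.73 CPM in the controls. Foxa1, a forkhead factor, varied most among the other 7, between 0.755 and 37.4 CPM, and was at 0.0681 and 0.299 CPM in tumours 7 and 9. A count of 3 corresponds to between 0.18 and 0.31 CPM in a library, and the levels of Cytl1 in the other 7 are at 3 counts or fewer.

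Chromosome 11 held more of the lower genes than of the genes measured, namely 16 of the 79 lower genes (20.3%) against 1137 of the 12977 genes measured (8.76%). The median difference over 1107 of its genes was -0.15. Against the median of the 9 tumours, chromosome 11 stood at -0.066 in tumour 7 and -0.085 in tumour 9, but also at -0.068 in knockdown 3, and between -0.044 and 0.073 in the others. Among runs of 50 neighbouring genes, tumours 7 and 9 both lay more than 0.1 under the median of the 9 in 30 of 1182 runs, of which 28 were on chromosome 11. Of 3 overlapping runs that tied as the lowest, the first, from Nup85 to Tnrc6c (mm9 chromosome 11, 115425748 to 117624753), had a median difference of -0.35, with -0.19 in tumour 7 and -0.33 in tumour 9. Tmc8 and Cbx2 lie beyond its end, and Evpl, which codes for envoplakin, inside it (10.2 and 15 CPM against 16.8 to 56.6). All 106 runs of the chromosome had a negative median difference, and runs that overlap share genes. Chromosome 15 had a median difference of -0.18, but it came from 1 of the 2 tumours, with -0.32 in tumour 9 and 0.0026 in tumour 7, and knockdown 8 stood at -0.23. Whether copy number moved with these levels was not tested.

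**Figure D4:**
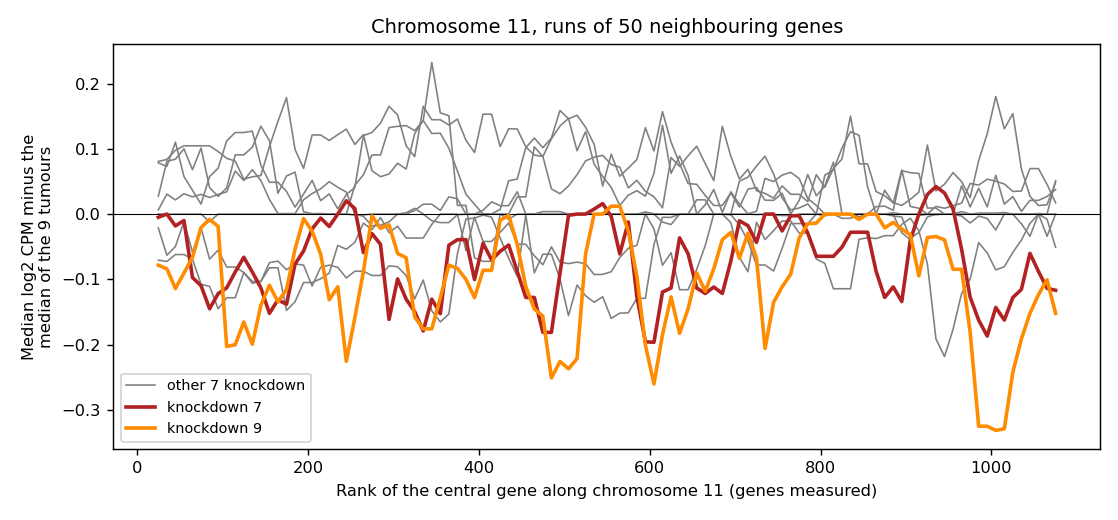
Running medians over 50 neighbouring genes of log2 CPM minus the median of the 9 knockdown tumours along chromosome 11, with genes in order and a line for each tumour. Tumours 7 and 9 lie under 0 along most of the chromosome and reach -0.19 and -0.33 in the run with the lowest median difference.

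The second component of all 11 tumours, on which the pair stands apart, was computed with the controls in it, so that the place of the controls is given as a description too. Among the 79 lower genes both controls lay below all of the other 7 knockdown tumours in 41 (51.9%), against 18.7% of all genes, and above them in 5 (6.33%), against 20.4%. Among the 369 higher genes both controls lay above all of the other 7 in 98 (26.6%) and below in 35 (9.49%). The other 7 are part of both comparisons, so that these shares are no independent sign that tumours 7 and 9 resemble the controls.

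**Figure D5:**
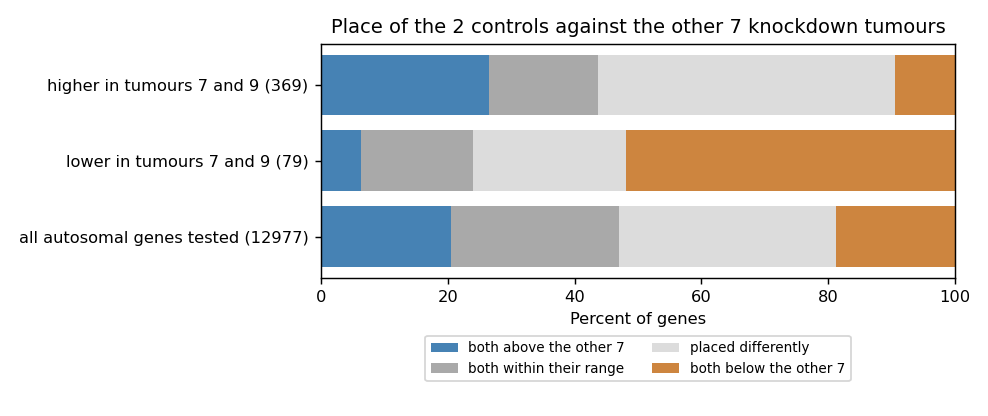
Share of genes in percent in which both controls lay above, within or below the range of the other 7 knockdown tumours, or differed in their place, for the 369 higher, the 79 lower and all 12977 genes. Both controls lie below in 51.9% of the lower genes and in 18.7% of all genes.

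All 9 knockdown tumours were also compared with the 2 controls by edgeR's quasi-likelihood test over 16241 genes of all chromosomes. The comparison asks how the genes of tumours 7 and 9 behave with Ezh2 knockdown. In that test 1674 genes (10.3%) were higher and 2116 (13%) lower in the knockdown tumours. Of the 369 genes higher in tumours 7 and 9, 20 rose and 26 fell, and of the 79 lower genes 23 rose and 4 fell. Tumours 7 and 9 and the other 7 make up the knockdown group of this test, so that the choice of the genes bears on these directions and nothing is read from the counts. Ezh2 itself fell (-1.59 ± 0.44 SE, adjusted p = 0.0225), a call that was lost without control 1 (adjusted p = 0.11) or control 2 (adjusted p = 0.14).

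Among the lower genes of tumours 7 and 9 that rose with knockdown were Tmc8 (3.63 ± 0.95 SE, edgeR, adjusted p = 0.018), Dlk1 (4.08 ± 1.30, adjusted p = 0.0403), Acap1 (2.56 ± 0.81, adjusted p = 0.0393) and Mobp (3.74 ± 0.83, adjusted p = 0.00869). In these genes tumours 7 and 9 lay between the controls and the other knockdown tumours or among the controls, at 15.1 and 5.16 CPM for Tmc8 beside 3.18 and 3.01 CPM in the controls. Mmp13 (-5.49 ± 0.83, adjusted p = 0.00109), Mmp9 (-4.16 ± 0.68, adjusted p = 0.00174) and Arg1 (-2.98 ± 0.49, adjusted p = 0.00174) fell, and tumours 7 and 9 were farther from the controls than the other 7, with 192 and 251 CPM of Arg1 in the controls. Of the higher genes Lcn2 rose (3.78 ± 1.01, adjusted p = 0.0197), and Olig1 (-2.37 ± 0.56, adjusted p = 0.0117), Olig2 (-2.71 ± 0.60, adjusted p = 0.00855), Adm (-2.77 ± 0.90, adjusted p = 0.044) and Car9 (-2.34 ± 0.60, adjusted p = 0.0167) fell. Clca2 (4.28 ± 2.38, adjusted p = 0.214) and Ctgf (1.85 ± 1.38, adjusted p = 0.354) did not pass, at levels that differ greatly within the knockdown group. When tumours 7 and 9 were left out, 36 of the 369 higher genes rose and 111 fell, against 14% and 17.4% of all 15977 genes tested, and 36 of the 79 lower genes rose and 5 fell. The low or high levels of the other 7 chose these genes, so that the same limit holds. With control 1 left out, 2 of the 369 rose and 10 fell and 3 of the 79 rose, and with control 2 left out these counts were 2, 9 and 4.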

How the data were processed

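RNA of 11 tumours was extracted with TRIzol and sequenced on a HiSeq2000 from TruSeq libraries, per the labels' protocols. The authors deposited one table of whole-number read counts per Ensembl gene, with symbols and mm9 coordinates. TopHat 1.4.0, HTSeq and mm9 are named in the submitters' processing notes; their settings and the use of strand are not stated there. Reads of overlapping genes may therefore be mixed, as is possible for 9 of the 30 genes with the largest differences (Hhla1, Smoc1, Ptx3, Ctgf, Cd300lb, Epha3, Tmc8, Irx3 and Rnf207).

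Of 27687 genes 26280 were autosomal. filterByExpr over the 9 knockdown tumours as 1 group (minimum count 10) kept 12977, with 99.5% of the counts. TMM-scaled log2 CPM (prior count 2, edgeR 4.0.16, R 4.3.3) gave components and differences. Printed CPM are scaled over all 11 tumours, which moved no log2 level by more than 0.057. The floor of 3 counts lay between 0.18 and 0.31 CPM. Knockdown was tested against control with edgeR's quasi-likelihood test without covariates and Benjamini-Hochberg adjustment, at a threshold of 0.05. The SE printed with it was derived as the absolute log2 difference divided by the square root of the test's F value. Autosome medians used genes with a mean log2 CPM of at least 1. No library was a copy of another (smallest chi-square per gene 12.1). Replicates are separate samples by title only, so p-values measure the spread between samples, which may be technical.

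Named genes are the 15 largest positive and negative differences without overlap, with a mean log2 CPM of at least 2 and a proper symbol, up to 2 each way from each of 56 lists, and PRC2; others were chosen after their values were seen, and some genes are not reported here. Of 1437 listed symbols 1405 were found directly and 17 through a synonym. The members and the lists were chosen with earlier results of these data known. Alternatives were other scalings, filters, prior counts, fold limits and tests, and leaving out each tumour. The edgeR test was tried on simulated counts.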

Additional observations from a re-analysis of the deposited data

Results flagged for a closer look

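Among 138 values examined over the 9 knockdown tumours, 6 (4.35%) had an extreme tumour whose gap to the nearest other, as a share of the whole range, exceeded Dixon's 95% critical value, which chance exceeds in about 1 of 20 groups. Gaps of genes were taken on the log2 scale, while their levels are printed here as CPM. Kcnc1 was high in tumour 9 at 142 CPM, with tumour 7 next at 12.5 CPM. Kit, a receptor tyrosine kinase, was high in tumour 9 at 82.5 CPM, with 30.5 CPM in tumour 7. Acap1 was low in tumour 9 at 10.6 CPM, with 40.9 CPM in tumour 7. Six2 was low in tumour 7 at 1.09 CPM, with 4.94 CPM in tumour 9, and Mobp at 17.6 CPM, with 45.6 CPM in tumour 9. Cd4 was high in knockdown 6, at 5.52 CPM, with 2.33 CPM in the next tumour. All but Cd4 are genes named because tumours 7 and 9 lie outside the range of the other 7, so that the choice puts the extreme value in tumour 7 or 9 and nothing is read from their number.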

How the results depend on the processing

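Over the alternatives run the gap of tumours 7 and 9 to the nearest tumour was 40.01% to 62.9% of the range of scores. It was 50.3% as reported. The pair was chosen on these values, and the gap was taken on the leading component where it was largest, so nothing is read from its persistence. Without tumour 7 or tumour 9 the gap is that of the remaining tumour alone (59.0% and 45.1%). No called result reversed its direction in the settings run. A called gene has both tumours outside the range of the other 7, so leaving out a tumour could not reverse it and nothing is read from this. The difference of Ezh2, which was not called, was 1.14 without tumour 7 and -0.73 without tumour 9. Of the named genes' values 48 moved and 1825 did not, and of the lists' counts of members 103 moved and 345 did not. The counts of higher and lower genes moved with the filter and the limit: 722 and 204 without a filter on low counts, 592 and 164 with the filter asked of 2 tumours, 690 and 251 at 1.5-fold, 100 and 12 at 4-fold, and 1198 and 885 with no fold asked. Leaving out 1 tumour gave 380 to 685 higher and 78 to 411 lower genes. Of the called genes 82.4% were higher, 80.9% with RLE size factors and 75.1% with library sizes alone, where the median of all genes was -0.087 and that of chromosome 11 -0.23. Leaving out 1 tumour of the pair moved list medians: hypoxia 0.090 to 1.14, glycolysis 0.17 to 0.96, S phase -0.58 to -0.093, G2 and M phase -0.82 to -0.036 and Hedgehog 0.37 to 1.06. Those of precursors and astrocytes moved by less than the spread between replicates.

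For knockdown against control, leaving out 1 control gave 387 to 558 higher and 903 to 1192 lower genes. Of the 369 genes 2 rose in both cases and 9 to 10 fell, and of the 79 genes 3 to 4 rose. Without tumours 7 and 9, 36 and 111 of the 369 rose and fell and 36 of the 79 rose. limma-voom gave 9 of the 369 and 11 of the 79 rising, and DESeq2 53 rising and 42 falling of the 369. Control and knockdown tumours share replicate numbers 1 and 2, which the labels do not say pair them. Deviations of same-numbered tumours correlated at -0.14 and 0.017. The deviations of 2 controls from their mean mirror each other, so these values cannot show or exclude a pairing. The numbers are not taken as a pairing because the labels do not give one. With the replicate number as a block in edgeR 362 genes were higher and 324 lower, and Ezh2 had an adjusted p of 0.057. In that fit only replicate numbers 1 and 2 inform the difference between the groups. Depth limits low genes: 3 counts correspond to up to 0.31 CPM.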
